A study of Mus musculus with 415 samples.

Results

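In embryoid bodies treated with retinoic acid, 77 cells met a rule on accessible chromatin at 3 genomic intervals. The intervals are named for Gata4, Gata6 and the Krt8-Krt18 pair. The 77 were 18.6% of all cells profiled (exact 95% interval 14.9% to 22.6%), and 44 of them were open at all 3 intervals. Each cell is a mouse R1 embryonic stem cell derivative profiled by ATAC-seq of single cells, an assay that reads out where the enzyme Tn5 can insert adapters into accessible DNA. The stem cells had been grown with 15% serum replacement and 1000 U/ml of LIF, a cytokine that holds them undifferentiated. All cells then had the same history of 48 hours in hanging drops, which makes embryoid bodies, and then 4 days in retinoic acid, at a dose the labels give as 0.5 mM. There was no untreated group, and no separate cultures, chips or runs are named, so the series counts as 1 sample. Its cells share that source and do not replicate a condition, and no p-value was computed. Intervals beside shares of cells are exact 95% ones (Clopper-Pearson), and they reflect counting error alone.

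The 77 members were chosen by measured values, namely the 13 table rows inside the 3 intervals. A deposited value above 0 was read as open. A member had at least 2 of the 13 rows open, and its share of those rows was at least 1.2 times the share of all 23180 rows open in that cell. Everything said of the 13 rows for this set is therefore a description of the choice. All other cells served for comparison, on 20638 regions of 17 chromosomes other than 14, 15 and 18.

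GATA4 and GATA6 are zinc-finger transcription factors that bind the GATA motif, and in the early mouse embryo they drive formation of primitive endoderm and its derivatives. Keratin 8 and keratin 18 are obligate partners that build the intermediate filaments of simple epithelia, among them visceral endoderm and also trophoblast. Retinoic acid signals through nuclear receptors and is widely used to start differentiation of embryoid bodies, towards neural and endodermal fates among others. All 4 marker genes went into the rule, and no gene annotation on the build of the table was used here, so the endoderm-like label could not be checked against markers outside the rule. The set is therefore called by its intervals, and how these lie relative to the exons of Gata4 and Gata6 was not analysed here.

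The Krt8-Krt18 interval is the one whose shape can be compared with the gene models. Its first and last rows have centres 23888 bp apart on mm9, and the RefSeq starts of Krt8 and Krt18, which point away from each other, are 23874 bp apart on GRCm38. The match of distances does not place the rows, since coordinates were not carried between builds. The 250 bases before each start, from RefSeq on GRCm38.p6, are shown because the rows at both ends of this interval chose members. They were searched on both strands for the GATA factor sequences AGATAA or AGATAG, or the same with T as first base, and a match is in capitals. Krt8 lies on the minus strand at chr15:102004343-102004592 and Krt18 on the plus strand at chr15:102027966-102028215, each written 5′ to 3′ on its own strand.
Krt8: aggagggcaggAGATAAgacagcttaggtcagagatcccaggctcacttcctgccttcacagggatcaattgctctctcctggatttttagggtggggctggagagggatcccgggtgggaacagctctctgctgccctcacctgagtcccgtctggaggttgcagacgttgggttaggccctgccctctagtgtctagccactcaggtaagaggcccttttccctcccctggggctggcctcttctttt
Krt18: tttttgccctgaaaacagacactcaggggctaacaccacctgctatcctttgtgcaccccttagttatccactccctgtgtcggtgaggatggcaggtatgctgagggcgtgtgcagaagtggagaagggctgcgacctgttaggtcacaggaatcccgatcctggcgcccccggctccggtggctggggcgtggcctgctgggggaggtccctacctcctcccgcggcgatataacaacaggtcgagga
The Krt8 window holds 1 match, AGATAA, which begins at base 12 of the window, and the Krt18 window holds none of these letters. Of 32851 RefSeq promoter windows of the same length, 26.5% hold at least 1 match, so a match is common.

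Each interval was open in most members, and the keratin pair in the largest share. That interval has 5 rows against 4 at each of the others, which favours at least 1 open row. The Krt8-Krt18 interval (chromosome 15, 101834686 to 101859042 on mm9, 5 rows) had at least 1 open row in 72 of 77 members (93.5%, interval 85.5% to 97.9%) and in 15.1% of the other cells. The Gata4 interval (chromosome 14, 63902240 to 63961458, 4 rows) was open in 60 members (77.9%, 67% to 86.6%) and in 19.8% of the others. The Gata6 interval (chromosome 18, 10903997 to 10948794, 4 rows) was open in 59 members (76.6%, 65.6% to 85.5%) and in 14.8% of the others. All 3 intervals were open in 44 members, 26 members had a pair of them and 7 had 1. Of those 7, 5 were open at Krt8-Krt18 alone. Of the other cells, 63.3% had no open row and 7 (2.07%) had all 3 intervals open.

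Row by row, the shares in members ran from 22.1% to 42.9%, so that no single row was open in most members. The rows open most often were the fourth row at Gata6 and the fourth at Krt8-Krt18, each in 33 members (42.9%, 31.6% to 54.6%). In the other cells these rows were open in 4.73% and 5.03%. The first row at Gata4 was the least often open, in 17 members (22.1%, 13.4% to 33%) and 4.44% of the others. The third row at Gata4 was the one most often open outside the set, in 12.7% of the other cells (9.36% to 16.8%) and 37.7% of members. An open row usually held 1 fragment, with medians of 0.838 to 1.38 fragments in members, where a fragment is taken, from the values, to be the signal of 1 pair of 74-base reads.

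**Figure D1:**
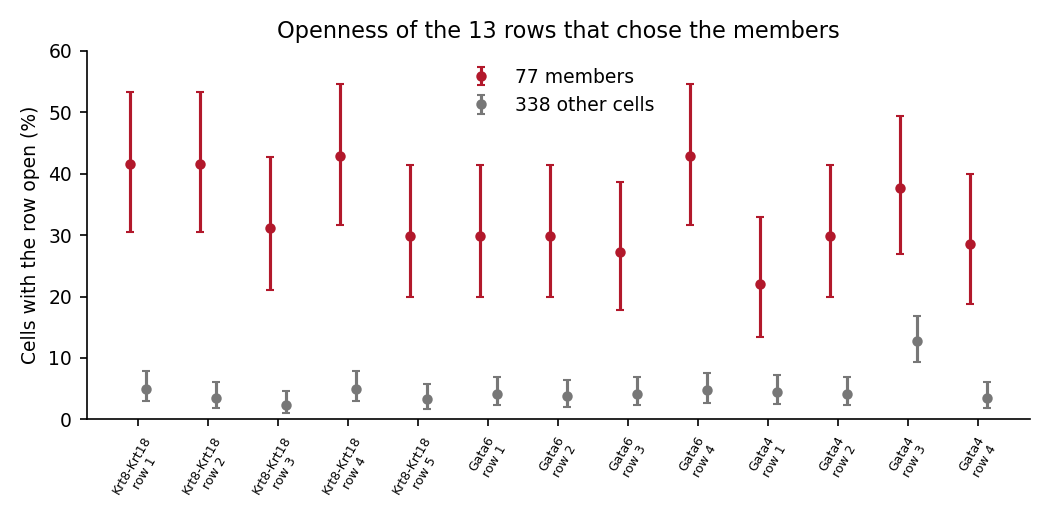
Share of cells (%, linear axis) in which each of the 13 rows was open, for the 77 members and all other cells, with exact 95% intervals for the counting of cells. Members sit between 22.1% and 42.9% at every row because the rows chose them, and the other cells lie between 2.37% and 12.7%.

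Members had between 2 and 13 rows open with a median of 4. Most held few, since 45 had 2 to 4 rows open and 32 had 5 or more. The cell with all 13 rows open was also among the deepest, with 11531 open rows over the table, and its share of set rows was 2.01 times its own share. At the border of the rule, the 3 members nearest to it had ratios of 1.22, 1.22 and 1.24 with 3, 3 and 5 rows open. Among cells with at least 2 open rows, the 3 nearest left outside had 1.197, 1.19 and 1.17 with 4, 8 and 4 rows open. Of the 79 cells with only 1 open row, 6 reached the ratio of 1.2 and were kept out by the minimum of 2 rows.

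Depth of members and of the other cells overlapped widely. The median member had 3715 open rows (range 1256 to 11531) and the median other cell 3957.5 (756 to 12267). Depth did go with the number of intervals found open, and the rule in part sets this. A deeper cell needs more open set rows to reach 1.2 times its own share. Members open at 1, 2 and 3 intervals had medians of 2321, 2931.5 and 4620.5 open rows, and whether the closed intervals of shallow members had gone unsampled was not tested. The 45 other cells with at least 2 open set rows were deep, with a median of 6065. The rule sets this too, since such cells were left out only where depth was high for their number of open set rows. Members were more frequent among low title numbers, whose meaning the labels do not give. They made up 24%, 26%, 10.7% and 13.5% of 4 consecutive sets of title numbers, whose median depths were 3679, 3869, 4160 and 3838 open rows. Whether a batch lies behind the title numbers was not tested.

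Each interval was open more often in cells that had been chosen on the other intervals. Values here are open rows over those expected from the depth of each cell and the openness of each row. Cells chosen by the same rule from Gata4 and Gata6 rows alone numbered 61, and 49 of them (80.3%, 68.2% to 89.4%) had an open row at Krt8-Krt18, against 20.9% of the rest (16.8% to 25.5%). Observed over expected was 2.59 in the chosen cells and 0.700 in the rest, a ratio of 3.70. The Gata6 interval was open in 66.7% of 78 cells chosen without it (55.1% to 76.9%) and 16.9% of the rest, a depth-scaled ratio of 4.41. For Gata4 the shares were 69.9% of 73 cells (58% to 80.1%) and 22.2%, with a ratio of 3.60. These intervals had been put together with earlier results of these cells known, so the ratios describe the choice and are not independent support for it. Rows flanking the intervals differed less, but the set rows had chosen the members, so the rule in part fixed this contrast. Within 200 kb of the set rows, the median depth-scaled ratio of members over other cells was 1.11 over 12 regions at Krt8-Krt18, 1.03 over 4 at Gata6 and 1.17 over 7 at Gata4. Single flanking regions ran from 0.404 to 2.54. Of them 1, at Krt8-Krt18, was called higher and none lower, by the rule given with the comparison across chromosomes. In that comparison 7.79% of the regions were called higher and 6.08% lower.

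Cells were also grouped without chromosomes 14, 15 and 18, into 3 clusters by k-means, and members fell mainly into one of them, here called cluster H. It held 65 of the 77 members (84.4%, 74.4% to 91.7%) and 45 of the other clustered cells (13.4%, 9.91% to 17.5%). Of its 110 cells, 59.1% were members (49.3% to 68.4%). The other clusters held 9 and 3 members, or 4.71% and 2.65% of their cells. Cluster H was picked because it held most members, so the openness of the marker intervals in it restates this overlap and is given as a description. At least 1 of the 13 rows was open in 99 of the 110 cells of cluster H (82.8% to 94.9%) and in 33.6% of the cells outside it (28.3% to 39.2%). For Krt8-Krt18 these shares were 71.8% and 14.5%, for Gata6 58.2% and 14.8%, and for Gata4 65.5% and 18.1%. Scaled for depth, open rows over expected were 2.92, 2.58 and 2.45 in cluster H and 0.363, 0.475 and 0.518 outside it. Median depth was 3824 open rows in members of cluster H, 3507 in its other cells and 4006 in other cells outside it.

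**Figure D2:**
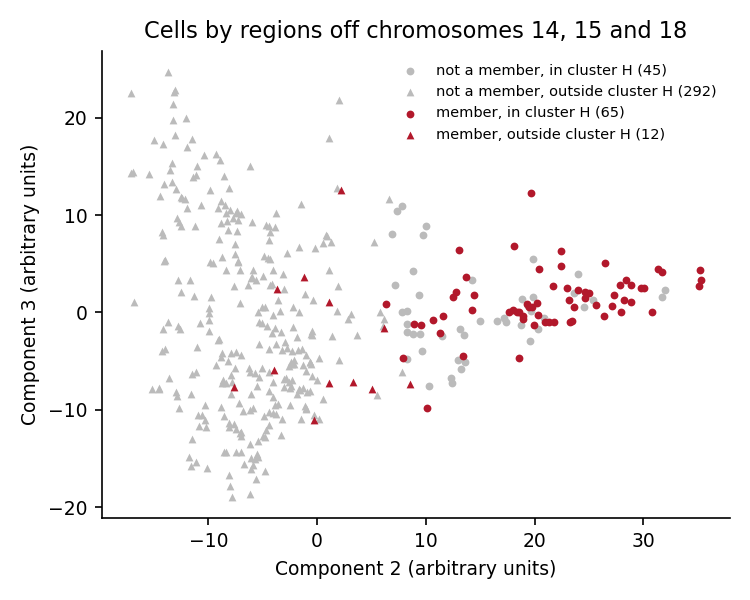
Each point is 1 clustered cell, placed by components 2 and 3 (arbitrary units) of weighted open and closed values on chromosomes other than 14, 15 and 18. Of the 77 members (red), 65 lie in cluster H (circles) and 12 among the cells outside it (triangles).

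On the 17 chromosomes that the rule did not use, 1608 regions were more accessible in members and 1254 less accessible. A call required that depth-scaled shares be at least 2-fold apart between members and other cells, with exact intervals that did not overlap. This is a rule of size, with no replicates behind it. The calls were 7.79% (higher) and 6.08% (lower) of the 20638 regions compared. The median higher region was open in 24.7% of members and 6.51% of the other cells, with a median depth-scaled ratio of 4.03. Of the higher regions 821 reached 4-fold, 46 reached 8-fold and 9 reached 10-fold. The median lower region was open in 2.60% of members and 16.9% of the others, and 11.6% of the lower regions were open in no member. Over all compared regions the median ratio was 0.919 (-0.12 on the log2 scale), and the median shares were 14.3% and 15.1%.

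**Figure D3:**
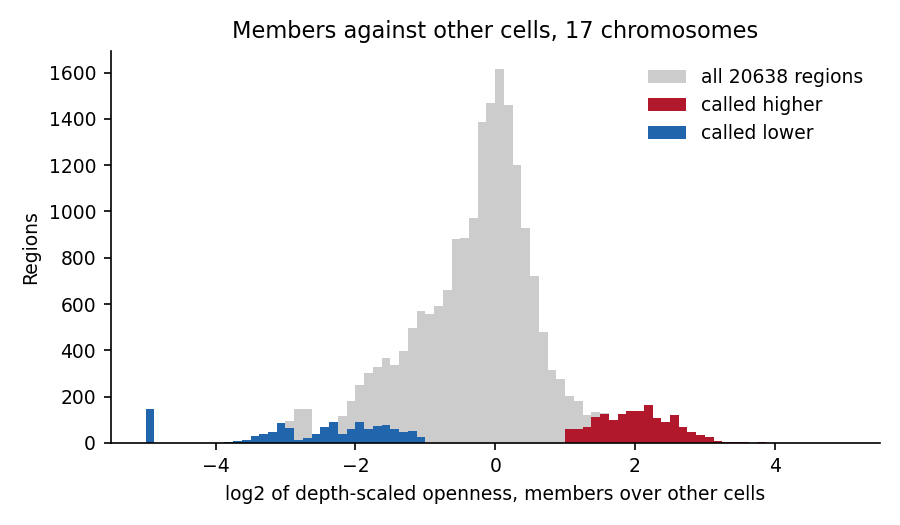
Number of regions (linear axis) by log2 of the depth-scaled ratio of members over other cells, for all 20638 regions and for those called higher (1608) and lower (1254). The bar at the left edge holds the regions open in no member, which have no finite log2 ratio.

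The balance of higher and lower calls differed between the ways of handling depth. On observed shares 1459 regions were higher (7.07%) and 1588 lower (7.69%), and after each cell had been thinned to 1500 open rows 3.43% of the regions were higher and 0.664% lower. Higher regions made up 56.2% of the calls scaled by depth, 47.9% on observed shares and 83.8% after thinning. Of the 1608 higher regions 1589 had a thinned ratio above 1, and of the 1254 lower regions 1250 had one below 1. Thinning draws on the same open values that made the calls, so these directions were largely set in advance. Still called after thinning were 637 of the higher and 89 of the lower regions. Thinning also removes open values, and whether the correction or this loss moved the balance was not tested. No majority of higher or lower regions can be read from the counts of calls, which differed between these ways.

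Higher and lower regions were found on each of the 17 chromosomes. Higher regions ran from 5.86% of regions on chromosome 11 to 10.7% on chromosome 3 among autosomes and made up 3.01% on chromosome X. Lower regions ran from 4.51% on chromosome 7 to 8.07% on chromosome 13, with 1.60% on chromosome X. The sum of open values over expected in members stayed between 0.945 (chromosome 13) and 1.07 (chromosome 16). Higher regions were narrower than the median region, with a median of 589.5 bp against 763 bp, and lower ones had 706.5 bp. Higher regions were also open in fewer cells, with a median of 9.88% of all cells against 14.5% over the compared regions. Whether the width goes with this was not tested. Signal per open value comes from the same values as the calls and is given as a description. Its difference at higher regions lay mainly in the other cells. At higher regions 28.6% of the open values in members exceeded 1 fragment, against 21.6% in the other cells, while over the compared regions, without 14 of very high signal, these shares were 27.6% and 29.8%. At lower regions they were 22.4% in members and 29.5% in the others.

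Regions called in the same direction lay next to each other more often than regions at large. Of 1250 higher regions with a neighbour starting within 50 kb, 330 (26.4%) were next to another higher region, whereas 11.4% of all regions with such a neighbour were next to a higher one. For lower regions the shares were 17.4% and 7.88%. Where at least 1 of a pair of adjacent regions was higher, both were in 10.8% of pairs and the other was lower in 3.74%. Of all regions compared 7.79% were higher and 6.08% lower, and the pair shares these would give were not computed.

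The 12 leading higher regions, ranked by the ratio between the nearest depth-scaled bounds of both groups, were open in 29.9% to 48.1% of members and in 2.37% to 6.21% of the other cells. The first was on chromosome 6 from 136710436 to 136710888, open in 26 members (33.8%, 23.4% to 45.4%) and 9 other cells (2.66%, 1.22% to 4.99%), a depth-scaled ratio of 13.6. The next, on chromosome 16 from 45900340 to 45900828, was open in 27 members (35.1%) and 10 other cells (2.96%), a ratio of 12.7. A region on chromosome 6 from 47278235 to 47278632 had the highest share in members among the 12, with 37 open cells (48.1%, 36.5% to 59.7%) against 18 (5.33%, 3.19% to 8.29%) and a ratio of 9.65. Each of these regions was thus closed or unsampled in more than 50% of members, as was each of the 13 marker rows.

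The other 9 followed the same pattern. Chromosome 8 carried 1, from 129353457 to 129353695, with 29.9% of members and 2.37% of the others open (ratio 13.6). Chromosome 1 carried 3 of them, from 37625006 to 37625567 (35.1% and 3.25%), from 31213131 to 31213918 (37.7% and 4.14%) and from 158599822 to 158600122 (31.2% and 3.25%). The widest, with 1552 bp, spanned 85132667 to 85134219 on chromosome 16 and was open in 46.8% and 6.21%. A pair with 23 open members each (29.9%) spanned 25901623 to 25901890 on chromosome 12 and 21392238 to 21392609 on chromosome 13, with 2.66% and 2.96% of the others open. The remaining pair, with 31 open members (40.3%) and 17 open other cells (5.03%) each, spanned 156609260 to 156609795 on chromosome 2 and 45426499 to 45426879 on chromosome 4. Their intervals overlap, so the order of the 12 by share is not established, and being picked for size their ratios lean high. Of the 12, 3 had another higher region within 100 kb. No share over all regions at 100 kb stands beside this count, so it is not read as clustering.

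The 8 leading lower regions were open in 15.7% to 24.3% of the other cells, and 7 of them in no member, where a limit of 3 cells in 77 allows a share of up to 3.90% and the exact 95% interval reaches 4.68%. The first, on chromosome 5 from 112322847 to 112323459, was open in 76 other cells (22.5%, 18.1% to 27.3%). With members taken at the limit of 3 cells, its depth-scaled share would be 5.43-fold lower in members. For the region on chromosome 7 from 122968067 to 122968770, open in 61 other cells (18%), this fold was 4.34. For chromosome 13 from 20604262 to 20605135, open in 58 (17.2%), it was 4.12. Regions on chromosome 12 from 87544469 to 87544992, chromosome 6 from 142815967 to 142816526 and chromosome 9 from 115617590 to 115618446 were alike. Each was open in 56 other cells (16.6%), with a fold of 3.98. That on chromosome 11 from 64213944 to 64214504 was open in 53 (15.7%), with a fold of 3.76. These folds are no minimum. The limit of 3 cells lies below the exact upper bound of 4.68%, and the error of the share in the other cells is left out. With the exact bounds of both groups, the depth-scaled ratio of members over other cells was at most 0.274 at the first of these 7 regions and at most 0.418 at the last. The only one open in a member, on chromosome 13 from 83879002 to 83879634, was open in 1 member (1.30%, 0.0329% to 7.02%) and 82 other cells (24.3%, 19.8% to 29.2%). After thinning, 6 of the 8 no longer met the rule for a call, and among the higher title numbers 7 did not.

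**Figure D4:**
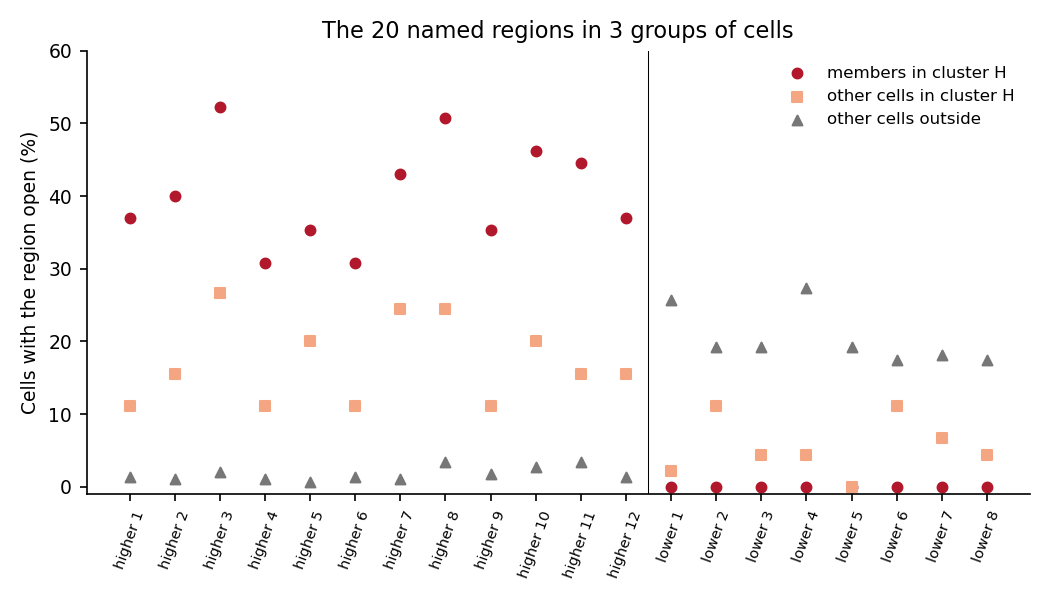
Share of cells (%, linear axis) open at the 12 leading higher and 8 leading lower regions, in the 65 members of cluster H, its 45 other cells and the other cells outside it. At higher regions members of cluster H lie at 30.8% to 52.3%, its other cells at 11.1% to 26.7% and other cells outside at 0.685% to 3.42%.

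Summed over 100 kb bins, differences were smaller than at single regions, which the pooling of regions in part fixes. In 613 bins with at least 5 regions the median ratio of members over other cells was 1.02, with 0.532 and 1.57 as the 5th and 95th percentiles. At least 2-fold higher were 9 bins and at least 2-fold lower 24. The largest ratio, 2.67, was on chromosome 6 from 72200001 to 72300000, where 17.7% of the values were open in members and 7.10% in the others. It was followed by chromosome 3 from 101900001 to 102000000 (2.57) and chromosome 2 from 147800001 to 147900000 (2.44), where 4 of 6 regions were called higher. The bins on chromosome 8 from 28100001 to 28200000 (2.43) and from 28200001 to 28300000 (2.01) adjoin each other and hold 5 higher regions together. Those on chromosomes 19 from 10700001 to 10800000, 12 from 99900001 to 100000000 and 4 from 137000001 to 137100000 had ratios of 2.05, 2.05 and 2.04. The smallest ratio was 0.268, on chromosome 5 from 101900001 to 102000000, with 4.16% and 16.6% of the values open. Chromosome 2 from 4100001 to 4200000 (0.293) and from 146100001 to 146200000 (0.351) and chromosome 6 from 91200001 to 91300000 (0.339) were the others lowest in members.

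The cells were also divided at the median title number, and regions called among the lower numbers were read among the higher ones, and the reverse. Among the lower numbers, with 52 members, 1134 regions were higher (5.49%) and 590 lower (2.86%), and among the higher numbers, with 25 members, 759 were higher (3.68%) and 92 lower (0.446%). Of the 1134, 96.4% were also higher in members with higher numbers, with a median ratio of 4.23 there, where 44.3% of all regions were above 1 and the median was 0.918. Of the 759, 97.1% were higher in the lower numbers, with a median ratio of 3.71. For regions called lower, 88% of those from either set were also lower in the opposite set, against 55.7% and 56.4% of all regions. Called in both sets were 503 higher and 15 lower regions. Both sets hold cells of the same sample, with members chosen by the same rule after earlier results were known. The likeness of the sets is therefore a description and no independent support.

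These cross-read regions also show how members differed among themselves. For each cell, open regions over expected were summed over the regions called in the set of title numbers that did not contain it. At higher regions the median member had 2.75 times the expected number (5th to 95th percentile 0.870 to 4.14), and 72 of 77 were above 1. The median other cell had 0.394 (0.197 to 2.55), with 74 cells above 1. At lower regions the medians were 0.522 and 1.08, and 70 members were below 1. Members open at 3, 2 and 1 intervals had medians of 2.64, 3.23 and 1.51 at higher regions, the last over 7 cells that ranged from 0.264 to 4.20. Ranges overlapped, and the median did not rise with the number of open intervals from 2 to 3.

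The scores also differed by cluster, but the clusters were formed on open values of the same chromosomes, so this contrast is in part set by the grouping. Members in cluster H had a median of 3.03 at higher regions and its other cells 2.20, and no cell of either kind was below 1. The 12 members outside cluster H had a median of 1.03 (0.264 to 2.11), against 0.362 in other cells outside it, and 1.03 against 1.14 at lower regions. Of the other cells, 12 reached the median member at higher regions. All 12 belonged to cluster H, and 10 of them had at least 1 open row in the marker intervals. Over all 45 other cells of cluster H the lower quartile and the median were both 1 open row, so this was not particular to the 12.

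**Figure D5:**
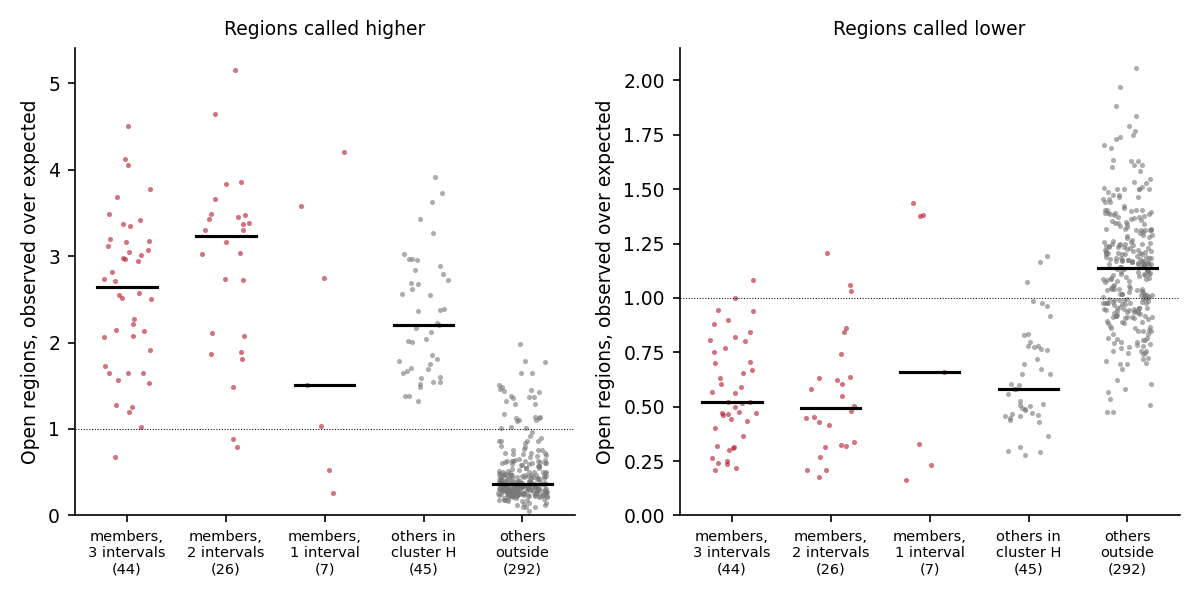
Open regions over expected (linear axes) in each cell, at regions called higher (left) and lower (right) in the set of title numbers that the cell does not belong to. Points are cells, bars are medians, and the dotted line is 1. At higher regions, members at 3 and 2 intervals (medians 2.64 and 3.23) and other cells of cluster H (2.20) lie above other cells outside (0.362).

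Within cluster H, few regions met the rule for a call. With 65 members and 45 other cells, 20 regions were called higher (0.0969%) and 29 lower (0.141%). Its 45 other cells, set against the other cells outside, gave 1354 higher (6.56%) and 523 lower (2.53%) regions, which the clustering on these chromosomes in part fixes. The 12 members outside cluster H, set against the same cells, gave 0.693% of the regions as higher and 10 regions (0.0485%) as lower. Group sizes differ between these comparisons, so the counts do not rank the differences. At the leading higher regions, the other cells of cluster H were open in 11.1% to 26.7%, below its members at 30.8% to 52.3%. That gap includes the effect of having picked these regions for their difference between members and other cells.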

How the data were processed

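The authors' deposited table holds signal, a whole number per region and cell, for 23180 regions on mm9 in 415 cells, of which 77 were members and 338 served for comparison. Of the values above 0, 37.6% equal 148 and 51.1% are multiples of 74, as summed bases of paired 74-base reads would give; the unit was read from the values alone. MACS2 and mm9 are named per the submitters' processing notes. Which aligner, duplicate treatment and region selection were used was not given in the sources used here. Doublets were neither called nor removed.

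Counts had been assumed possible at the design stage, and no count test was used. Members and lists were chosen with earlier results of these data known. Expected openness was 1 − exp(−region rate × cell rate), fitted to the margins of the 20638 compared regions. Clustering weighted open values by term and inverse document frequency (scale 10000), kept components 2 to 10 and used 50 k-means starts, on the 414 cells with at least 1000 fragments. Named regions were the 12 higher and 8 lower calls with the largest ratio between the nearest interval bounds, at most 1 per 100 kb, and the 8 highest and 4 lowest bins. The comparison was tested on simulated data. Thinning to 1500 open rows left out 33 cells, 2 of them members. Flanking regions within 200 kb, neighbours within 50 kb and comparisons within the cluster were chosen after seeing the data. The marker gene lists, other than the 4 genes of the rule, needed an annotation on mm9 and were not run. Tools were Python 3.11.15, numpy 2.4.6, scipy 1.17.1, pandas 2.3.3 and scikit-learn 1.9.0.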

Additional observations from a re-analysis of the deposited data

How the results depend on the processing

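The number of members was 77, and 57 to 91 with other ratios, with at least 3 rows or with an interval left out. Requiring more than 1 fragment for an open row left 30. Higher regions made up 7.79% and lower regions 6.08% of the 20638 regions compared, and the shares that follow have the same base. With more than 1 fragment required these were 2.21% and 0.174%, and after thinning 3.43% and 0.664%. Among the lower title numbers 2.86% were lower. Among the higher title numbers 3.68% were higher and 0.446% lower. Lower regions were 3.20% without the Krt8-Krt18 interval and 2.95% in cells at or above the median depth. Higher regions were 3.65% when only regions open in at least 10% of cells were kept. The other alternatives run left these shares within 1.5 times. The causes of these shifts were not tested, but the title sets, the deeper cells and the thinned cells hold fewer cells or fewer open values. Regions called higher in one set of title numbers had a median ratio of 3.95 in the opposite set, and 3.39 to 4.29 under the alternatives. The share of members in the cluster holding most of them was 84.4%, and 77% to 87.7% under the alternatives. Ratios at a held-out interval lay between 3.30 and 4.60. None of the 20 named regions changed direction in the alternatives that were run for them and gave a finite ratio. The rule for a call was no longer met by 6 of them after thinning, by 7 among the higher title numbers, and by 1 each without the Gata6 and without the Krt8-Krt18 interval. Each of these was one of the 8 lower regions, and none was a higher one. No paired analysis was possible because there is 1 group of cells and no test.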
